A study of Mus musculus with 8 samples.

Results

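The vacuolar ATPase (V-ATPase) is the proton pump that acidifies lysosomes, endosomes and secretory vesicles, and 10 of its genes are described here in bone marrow-derived dendritic cells (BMDCs). The genes are Atp6v0a1, Atp6v0b, Atp6v0c, Atp6v0d1 and Atp6v0d2 of the membrane sector V0, Atp6v1a, Atp6v1b2, Atp6v1c1 and Atp6v1h of the cytosolic sector V1, and the accessory subunit Atp6ap1. They were taken as a named list of 10 among the 47937 Ensembl gene IDs of the count tables, each ID matched to its mouse symbol, and the list was drawn up with earlier results of these data known. RNA was sequenced from WT and 3xGrk-/- BMDCs, unstimulated or stimulated with lipopolysaccharide (LPS), a bacterial cell wall component that makes dendritic cells mature. There were 8 libraries, 2 in each of the 4 groups.

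The cells had grown out of bone marrow for 8 days in culture medium with GM-CSF, and LPS was given at 20 ng/ml for 24 h with GM-CSF still present. 3xGrk-/- cells, called Grk 3xKO in the sample labels, lacked 3 of the G protein-coupled receptor kinases. Their mice carried Vav-iCre with the floxed alleles Grk2 fl/fl and Grk6 fl/fl on a Grk3-/- background. Vav-iCre deletes floxed alleles in blood-forming cells, so that Grk2 and Grk6 are removed there, while Grk3 is absent from the whole mouse. WT cells came from age- and sex-matched Cre-negative mice on the C57BL6/J background, and all mice were older than 8 weeks. A GM-CSF culture holds cells that resemble dendritic cells, cells that resemble macrophages and granulocytes, and the RNA was taken from the bulk. RNA was isolated in technical triplicates per the study's methods, which do not say whether the 2 libraries of a group stand for separate cultures, so that every p-value measures the spread between libraries, which may be technical.

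V1 hydrolyses ATP and turns a central stalk, and the rotation drives protons through V0. In V1, subunit A (Atp6v1a) carries the catalytic sites and subunit B (Atp6v1b2) alternates with it in the head, subunit C (Atp6v1c1) joins V1 to V0 and leaves when the sectors come apart, and subunit H (Atp6v1h) holds free V1 inactive. In V0, the proton-carrying ring is made of subunits c (Atp6v0c) and c'' (Atp6v0b), subunit a (Atp6v0a1 and its paralogues) holds the channels by which protons enter and leave the ring, and subunit d links the ring to the stalk. Subunit d has a widely used form, Atp6v0d1, and a form known from osteoclasts, kidney and some myeloid cells, Atp6v0d2. In dendritic cells, acidification of lysosomes by this pump is known to rise with maturation and to serve antigen processing.

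Depth and labels were checked first. Gene counts summed to 4713305 in the shallowest and 6933358 in the deepest library, and the chi-square per gene between the 2 libraries of a group was 1.59 for unstimulated WT, 1.74 for unstimulated 3xGrk-/-, 3.07 for WT with LPS and 9.02 for 3xGrk-/- with LPS, so that the last group differed most from counting noise. Expression is given in CPM, the read count of a gene scaled to the depth of its library with TMM factors set over the 8 libraries. The targeted kinases were lower in every 3xGrk-/- library than in every WT library of the same stimulation: without LPS, Grk2 had 320.2 to 321 CPM in WT against 146 to 151 CPM, Grk6 had 83.4 to 85.4 against 36.9 to 37.0 CPM, and Grk3 had 338 to 341 against 263 to 267 CPM. These counts cover the whole genes and not the deleted parts alone. Marker genes of other cells moved with the genotype, in counts that stand beside 22.1% of all genes tested called higher and 22.7% lower in 3xGrk-/- cells without LPS, and 24.7% higher and 24% lower with LPS. The summed level of 12 monocyte and macrophage genes, of which 7 were called higher and 4 lower without LPS and 12 higher with LPS, was 2376 and 2400.5 CPM in the WT libraries against 8670.4 and 8637.8 CPM in the 3xGrk-/- libraries without LPS, and 689 and 706 CPM against 7357 and 7472 CPM with LPS. For 12 dendritic cell genes, of which 3 were called higher and 8 lower without LPS and 2 higher and 10 lower with LPS, the sums were 14716 and 14664 CPM against 7485 and 7377 CPM without LPS, and 9745 and 10398 CPM against 8243 and 8071 CPM with LPS. For 8 eosinophil genes they were 1257 and 1330.4 CPM against 74.5 and 67.0 CPM without LPS, and 1149.6 and 1251 CPM against 88.9 and 82.9 CPM with LPS. For 10 neutrophil genes the group means were 744 against 539 CPM without and 368 against 197 CPM with LPS, and 7 stromal genes had 144 CPM in 3xGrk-/- cells with LPS and 11.4 to 17.4 CPM in the other groups. No gene of these 5 lists was at 0 in all libraries, while 9 lymphocyte genes summed to at most 1.70 CPM in any library. In bulk RNA, fewer cells of a type and less RNA per cell cannot be told apart, and the part of these markers in the results on the V-ATPase genes was not tested.

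Sequences are shown for genes whose promoters are in the RefSeq table on GRCm38.p6, which held 6 of the 10 genes (Atp6ap1, Atp6v0a1, Atp6v0b, Atp6v0c, Atp6v0d1 and Atp6v1a). Atp6v0d2, Atp6v1b2, Atp6v1c1 and Atp6v1h had no entry. Atp6v0b and Atp6v0c are shown because, after Atp6v0d2, they had the largest genotype effects of the list with LPS, Atp6v0d1 because it is the paralogue of Atp6v0d2 with the smallest, and Atp6v1a because of its motif, a choice made after the motifs were found. Each stretch runs from 200 bases before to 20 bases after the RefSeq start site nearest to the 5' end of the gene model, 5' to 3' on the strand of the gene, on the minus strand for all 4 genes. The stretches are chr4:117887310-117887529 for Atp6v0b, chr17:24169659-24169878 for Atp6v0c, chr8:105566045-105566264 for Atp6v0d1 and chr16:44139240-44139459 for Atp6v1a. Capitals mark the motifs CACGTG, TCACGTGA and GGGCGG, the last also as its complement CCGCCC.
Atp6v0b: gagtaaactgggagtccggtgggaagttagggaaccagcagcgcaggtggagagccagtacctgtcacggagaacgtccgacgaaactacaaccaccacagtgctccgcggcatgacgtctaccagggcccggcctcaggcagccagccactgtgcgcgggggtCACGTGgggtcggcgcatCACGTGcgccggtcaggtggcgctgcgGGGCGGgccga
Atp6v0c: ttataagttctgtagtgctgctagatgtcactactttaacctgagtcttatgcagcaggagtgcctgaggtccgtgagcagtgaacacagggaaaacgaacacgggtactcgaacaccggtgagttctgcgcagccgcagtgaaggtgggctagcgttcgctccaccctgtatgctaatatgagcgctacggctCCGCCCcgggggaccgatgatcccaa
Atp6v0d1: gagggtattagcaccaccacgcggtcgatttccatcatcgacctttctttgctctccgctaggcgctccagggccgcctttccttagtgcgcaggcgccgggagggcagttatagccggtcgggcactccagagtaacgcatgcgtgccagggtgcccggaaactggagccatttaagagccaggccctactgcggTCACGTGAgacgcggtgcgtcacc
Atp6v1a: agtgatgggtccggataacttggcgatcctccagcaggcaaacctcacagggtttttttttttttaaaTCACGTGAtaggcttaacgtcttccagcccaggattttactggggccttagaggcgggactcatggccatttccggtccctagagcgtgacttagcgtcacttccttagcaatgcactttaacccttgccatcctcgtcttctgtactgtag

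CACGTG is the E-box core that basic helix-loop-helix factors bind, TCACGTGA is its longer form that the MiT/TFE factors of lysosomal genes bind, CATGTG is a variant E-box, and GGGCGG is the GC box. The 4 motifs were searched on both strands in the window from 250 bases before to 50 bases after each start, and every TCACGTGA also holds CACGTG. Positions count from the start site, with 1 as the first transcribed base and negative values before it. Atp6v0b had CACGTG beginning at -36 and at -18. Atp6v0d1 had TCACGTGA beginning at -4, across the start site itself, and Atp6v1a had it at -132. Motifs were counted at the start site nearest to the 5' end of each gene model. Of the 6 genes, 3 held CACGTG and 2 held TCACGTGA, while 7.15% and 0.974% of all 32851 windows of the table did. The GC box was in 4 of the 6 genes and in 35.7% of windows, and CATGTG was in none of the 6 at that start site and in 14.2% of windows, although the window of another start site of Atp6v0c held it at -16. The shares over all windows count every start site of the table. These matches describe letters in a window and were not tested for binding.

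Every one of the 10 genes was counted in all 8 libraries and passed the filter on low counts. Compared per kilobase of exon, which lets genes of different length be set side by side, Atp6v0d1 had the highest level in unstimulated WT cells with 99.0 ± 3.16 CPM per kb (SD, n = 2), followed by Atp6v0b with 69.7 ± 0.0977 and Atp6ap1 with 58.1 ± 0.192 CPM per kb. Atp6v1h was lowest with 5.87 ± 0.243, just under Atp6v0d2 with 8.83 ± 1.45 CPM per kb, and no neighbours in the order overlapped. In unstimulated 3xGrk-/- cells Atp6v0b (109.5 ± 3.65) and Atp6v0d1 (107 ± 3.72 CPM per kb) shared the top and overlapped, as did Atp6ap1 and Atp6v1b2 behind them, and Atp6v0d2 stood seventh with 42.8 ± 0.00938 CPM per kb. With LPS, Atp6v0d2 was the lowest of the 10 genes in WT cells with 1.499 ± 0.136 CPM per kb and seventh in 3xGrk-/- cells with 40.0 ± 1.63 CPM per kb. The overlapping neighbours with LPS were Atp6v0a1 and Atp6ap1 in WT and Atp6v1b2 and Atp6v0d1 in 3xGrk-/- cells. Between its lowest and highest group mean, Atp6v0d2 had the widest range of the 10 genes as a fold, while Atp6v0b had the widest as a difference in CPM per kb, from 47.5 to 126 CPM per kb.

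**Figure D1:**
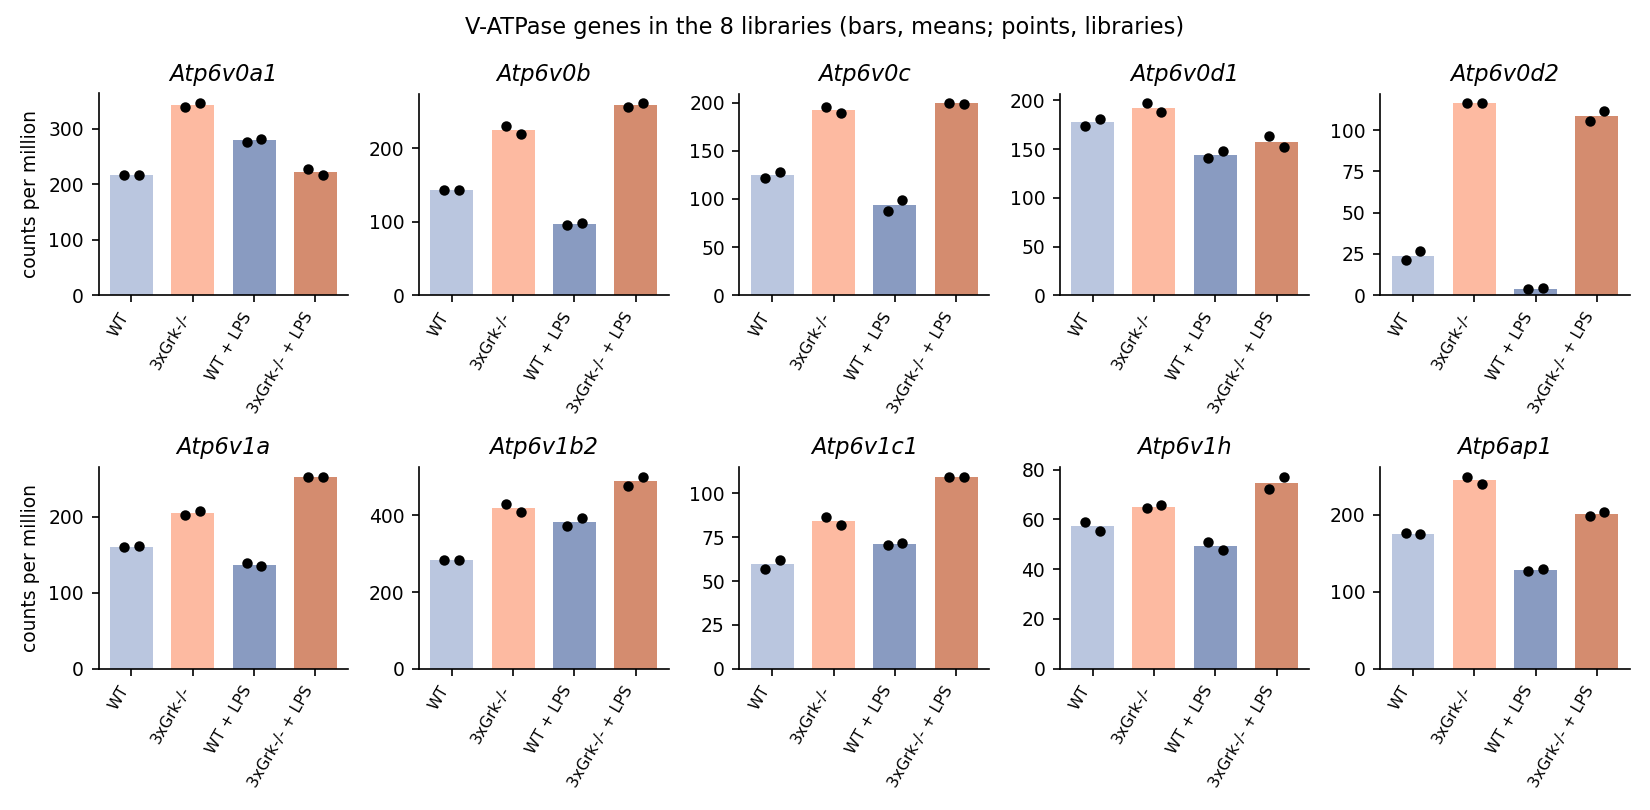
CPM of the 10 V-ATPase genes (y axis, a separate scale starting at 0 for each gene) in the 4 groups, with bars for means and points for the 2 libraries. Atp6v0d2 is at 3.81 and 4.33 CPM in WT cells with LPS and between 105 and 116 CPM in every 3xGrk-/- library, and Atp6v0a1 is the gene whose order of genotypes turns round with LPS.

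In unstimulated cells all 10 genes were higher in 3xGrk-/- than in WT. At an adjusted p under 0.05 (quasi-likelihood test of edgeR, Benjamini-Hochberg adjusted over the 12000 genes tested), 10 of 10 were called higher and 0 lower, where 22.1% of all genes tested were called higher and 22.7% lower. DESeq2 called 8 higher, and the count lower was also 0 with it and at an unadjusted p under 0.05. With a biological coefficient of variation fixed at 0.2 for every gene, in place of the one estimated from the libraries, 1 of the 10, Atp6v0d2, was called. Both 3xGrk-/- libraries lay above both WT libraries for all 10 genes, which was so for 34.3% of genes tested. The median log2 fold change of 3xGrk-/- over WT was 0.53 for the 10 genes, and -0.0017 for all genes tested. Summed over the list, the level was 1410 and 1433 CPM in WT and 2109 and 2062 CPM in 3xGrk-/- libraries, and 1389 and 1406 CPM against 1993 and 1946 CPM without Atp6v0d2.

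Atp6v0d2 (ENSMUSG00000028238, chromosome 4, 19876841 to 19922605 of GRCm38, minus strand) had 21.2 and 26.8 CPM in the WT and 116.4 and 116.3 CPM in the 3xGrk-/- libraries, from 111 and 191 against 778 and 670 counts. All 3xGrk-/- values were far above the WT values, a 4.77-fold difference (log2 fold change 2.25, SE 0.087, adjusted p = 1.68e-144). Its paralogue Atp6v0d1 (ENSMUSG00000013160, chromosome 8, 105524465 to 105566047, minus strand) had 173 and 181 CPM against 197 and 188 CPM, which do not overlap but lie close together (log2 fold change 0.12, SE 0.050, adjusted p = 0.0457). That call was lost in DESeq2 (adjusted p = 0.318), in the fit of all 8 libraries together (0.128), with library size only in place of TMM (0.03 at an adjusted p of 0.648) and when either WT library or 3xGrk-/- library 1 was left out (log2 fold changes 0.08 to 0.15).

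The ring subunits rose by similar amounts. Atp6v0b (ENSMUSG00000033379, chromosome 4, 117884326 to 117887333, minus strand) had 143.1 and 142.8 CPM in WT and 229.9 and 219 CPM in 3xGrk-/- libraries (log2 fold change 0.65, SE 0.051, adjusted p = 1.77e-36). It shares 243 exon bases with Gm12841 on the opposite strand, which had at most 5 counts in any library. Atp6v0c (ENSMUSG00000024121, chromosome 17, 24163866 to 24169702, minus strand) had 121 and 128 CPM against 195 and 189.6 CPM (0.62, SE 0.054, adjusted p = 7.74e-30), and it may share reads with pseudogene copies. The channel subunit Atp6v0a1 (ENSMUSG00000019302, chromosome 11, 101009452 to 101063719, plus strand) had 216 and 217 CPM against 339 and 346 CPM (0.66, SE 0.045, adjusted p = 8.66e-47). For each of the 3 genes the groups were well apart, with differences of 1.54- to 1.58-fold.

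Of the V1 genes of the list, Atp6v1b2 (ENSMUSG00000006273, chromosome 8, 69088646 to 69113711, plus strand) differed most, with 284 and 283 CPM in WT and 429 and 408 CPM in 3xGrk-/- libraries (log2 fold change 0.56, SE 0.043, adjusted p = 1.6e-38). Atp6v1c1 (ENSMUSG00000022295, chromosome 15, 38661933 to 38692446, plus strand) had 57.1 and 61.9 CPM against 86.6 and 82.0 CPM (0.50, SE 0.076, adjusted p = 5.21e-10). Atp6v1a (ENSMUSG00000052459, chromosome 16, 44085402 to 44139705, minus strand) had 159.7 and 161 CPM against 201 and 207 CPM (0.35, SE 0.051, adjusted p = 6.34e-11). In these 3 genes the libraries of the genotypes did not overlap. Atp6v1h (ENSMUSG00000033793, chromosome 1, 5070018 to 5162529, plus strand) had 58.8 and 55.5 CPM against 64.6 and 65.6 CPM (0.19, SE 0.082, adjusted p = 0.042), a call that was lost in DESeq2 (adjusted p = 0.33), in the fit of all 8 libraries (0.0718), with library size only (0.11 at an adjusted p of 0.29), and without WT library 2 or either 3xGrk-/- library (0.14 to 0.21). Atp6ap1 (ENSMUSG00000019087, chromosome X, 74297097 to 74304721, plus strand), which assists the assembly and sorting of the pump, had 176 and 175 CPM against 249.8 and 240.0 CPM (0.48, SE 0.048, adjusted p = 5.59e-22).

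With LPS, 8 of the 10 genes were called higher in 3xGrk-/- than in WT and 1, Atp6v0a1, lower, where 24.7% of the 11830 genes tested were called higher and 24% lower. Both 3xGrk-/- libraries lay above both WT libraries for 9 genes, against 36.0% of genes tested, and below them for Atp6v0a1. The median log2 fold change was 0.63 over the 10 genes and -0.0066 over all genes tested. With the coefficient of variation fixed at 0.2, 4 genes (Atp6v0d2, Atp6v0b, Atp6v0c and Atp6v1a) were called higher and 0 lower, and Atp6v0a1 lost its call (adjusted p = 0.553).

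Atp6v0d2 had 3.81 and 4.33 CPM in WT and 105 and 112 CPM in 3xGrk-/- libraries with LPS. The WT values rest on 21 and 28 counts, above the 3 counts taken as the floor, and the 3xGrk-/- values on 580 and 689. The difference was 26.4-fold (log2 fold change 4.72, SE 0.14, adjusted p = 7.07e-17), with an interval from 4.44 to 5.03 on the log2 scale (95%). Atp6v0d1 had 140 and 148 CPM against 164 and 152 CPM and did not pass the test (0.12, SE 0.071, adjusted p = 0.161), although leaving out WT library 2 gave an adjusted p of 0.0422 at 0.17. Atp6v0b had 96.2 and 98.9 CPM against 256.5 and 262 CPM, a 2.65-fold difference (1.41, SE 0.068, adjusted p = 2.68e-13). Atp6v0c had 87.8 and 99.3 CPM against 199.4 and 198.8 CPM, a 2.12-fold difference (1.09, SE 0.075, adjusted p = 9.55e-11). The libraries of the genotypes were far apart for both ring subunits.

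Among the V1 genes with LPS, Atp6v1a had 138 and 135 CPM in WT and 251 and 252 CPM in 3xGrk-/- libraries (log2 fold change 0.88, SE 0.066, adjusted p = 3.47e-10). Atp6v1c1 had 70.8 and 71.8 CPM against 109.6 and 109.1 CPM (0.62, SE 0.080, adjusted p = 1.41e-06), and Atp6v1h had 51.0 and 47.7 CPM against 72.2 and 77.2 CPM (0.60, SE 0.095, adjusted p = 2.11e-05). Atp6v1b2, the most abundant V1 gene of the list per kilobase, had 373 and 393 CPM against 476 and 501 CPM (0.35, SE 0.060, adjusted p = 5.32e-05). Atp6ap1 had 126 and 130.1 CPM against 199 and 204 CPM (0.65, SE 0.068, adjusted p = 6.55e-08). For these 5 genes every 3xGrk-/- library was above every WT library. Atp6v0a1 went the other way, with 276 and 281 CPM in WT and 227 and 216 CPM in 3xGrk-/- libraries (-0.33, SE 0.062, adjusted p = 0.000122).

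**Figure D2:**
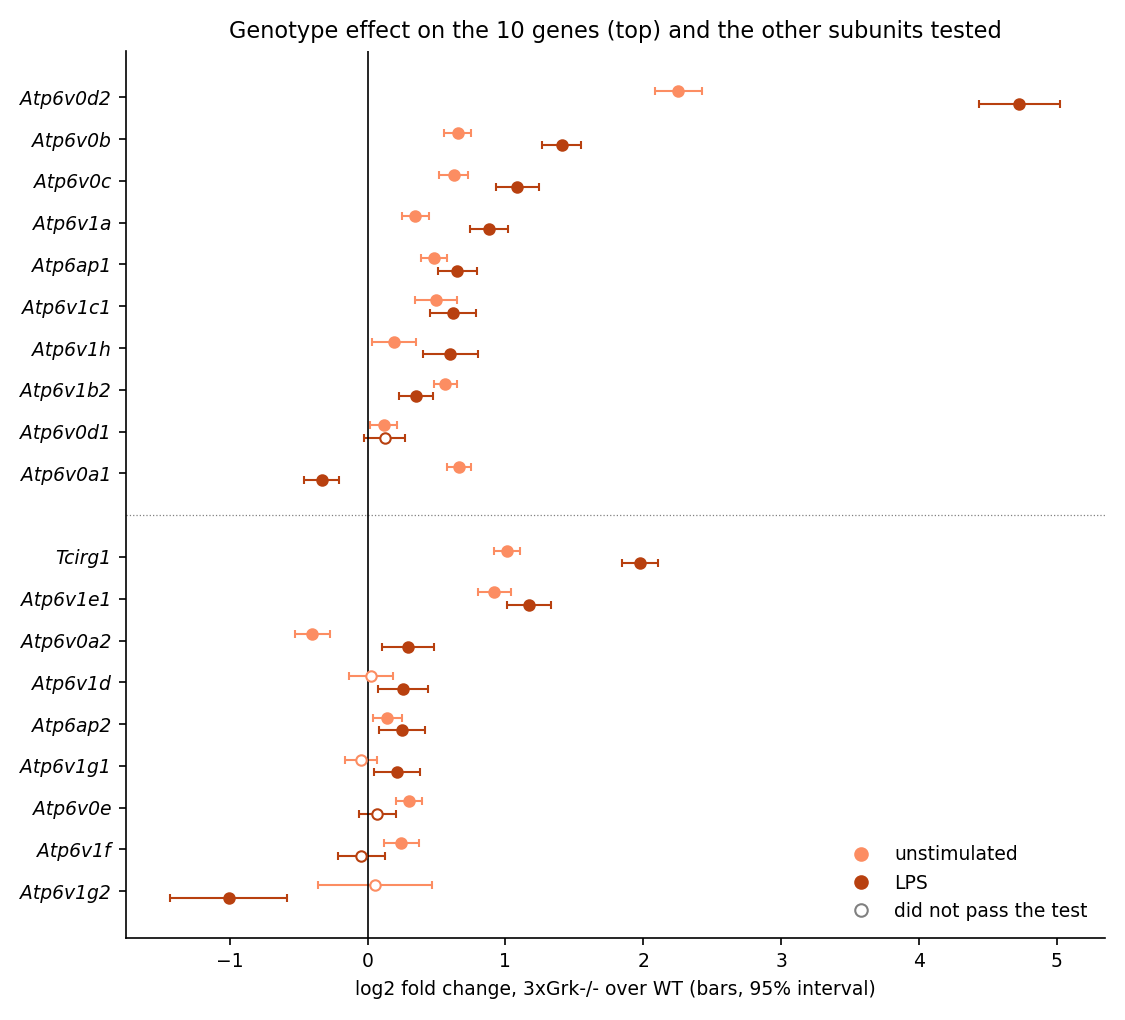
Log2 fold change of 3xGrk-/- over WT (x axis, with 95% intervals) for the 10 genes above the dotted line and the 9 other subunit genes tested below it, without LPS (light) and with LPS (dark). Filled points passed the test. Atp6v0d2 lies at 2.25 and 4.72, and Atp6v0a1 lies to the right of 0 without LPS and to the left of it with LPS.

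The genotype effect differed with LPS for 7 of the 10 genes. In one fit of all 8 libraries, the change in the genotype effect (with LPS minus without) was called higher for 5 genes and lower for 2, where 16.5% of the 12541 genes tested were called higher and 16.0% lower. It was largest for Atp6v0d2 (2.47 on the log2 scale, SE 0.20, adjusted p = 7.92e-11), followed by Atp6v0b (0.76, SE 0.082, adjusted p = 2.02e-08), Atp6v1a (0.54, SE 0.078, adjusted p = 3.47e-06), Atp6v0c (0.46, SE 0.091, adjusted p = 0.00022) and Atp6v1h (0.41, SE 0.12, adjusted p = 0.00836). It was negative for Atp6v0a1 (-0.996, SE 0.076, adjusted p = 2.15e-11) and for Atp6v1b2 (-0.21, SE 0.074, adjusted p = 0.0285). Atp6v0d1, Atp6v1c1 and Atp6ap1 did not pass the test, with values of 0.0074, 0.12 and 0.17, although Atp6ap1 was called when at least 10 counts were required in every library (0.21, adjusted p = 0.0374). With the coefficient of variation fixed at 0.2, Atp6v0d2 alone of the 10 was called, and Atp6v0a1 had an adjusted p of 0.175. The call of Atp6v1b2 was lost in DESeq2 (adjusted p = 0.092) and without any 1 of 4 libraries (both unstimulated WT libraries, unstimulated 3xGrk-/- library 1 and 3xGrk-/- library 1 with LPS, adjusted p 0.105 to 0.163), and that of Atp6v1h in DESeq2 (0.0843) and without 3xGrk-/- library 2 with LPS (0.0568).

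The response to LPS was also taken within each genotype, as the plot of the responses shows. In WT cells 3 genes were called higher and 7 lower with LPS, where 29.5% of genes tested were higher and 30.8% lower, and the median of the 10 genes was -0.26 on the log2 scale. With library size only in place of TMM, the median of all genes tested moved by -0.21 and that of the 10 genes was -0.48. With the coefficient of variation fixed at 0.2, Atp6v0d2 alone of the 10 was called. Atp6v0d2 fell by 2.57 (SE 0.18, adjusted p = 7.86e-13), from 21.2 and 26.8 CPM to 3.81 and 4.33 CPM, a 5.92-fold drop. Atp6v0b fell by 0.55, Atp6ap1 by 0.45, Atp6v0c by 0.41, Atp6v0d1 by 0.30, Atp6v1a by 0.23 and Atp6v1h by 0.21, with adjusted p between 1.01e-08 and 0.0394. Atp6v1b2 rose by 0.44 (SE 0.053, adjusted p = 4.98e-08), Atp6v0a1 by 0.37 (SE 0.054, adjusted p = 1.23e-06) and Atp6v1c1 by 0.25 (SE 0.079, adjusted p = 0.00667). The smallest of these calls did not stand in DESeq2, with adjusted p of 0.176 for Atp6v1h and 0.0509 for Atp6v1c1; that of Atp6v1c1 was also lost with library size only (0.04 at an adjusted p of 0.689) and without unstimulated WT library 1 (0.0908), and that of Atp6v1h without either unstimulated WT library or WT library 2 with LPS (0.0623 to 0.214).

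In 3xGrk-/- cells 5 genes were called higher and 3 lower with LPS, where 28.0% of genes tested were higher and 27.4% lower, and the median was 0.12. Atp6v0d2 did not pass the test, at -0.099 on the log2 scale (SE 0.075, adjusted p = 0.272) and 95% limits of -0.25 and 0.055. Atp6v0c did not pass it either (0.049, SE 0.061, adjusted p = 0.519). Atp6v1c1 rose by 0.37 (SE 0.071), Atp6v1a by 0.30 (SE 0.053), Atp6v1b2 by 0.22 (SE 0.052), Atp6v0b by 0.21 (SE 0.054) and Atp6v1h by 0.20 (SE 0.081), with adjusted p between 2.01e-05 and 0.0379. Atp6v0a1 fell by 0.63 (SE 0.053, adjusted p = 4.5e-11), Atp6v0d1 by 0.29 (SE 0.061, adjusted p = 0.000181) and Atp6ap1 by 0.28 (SE 0.054, adjusted p = 7.23e-05). These directions depend on the scaling. With library size only in place of TMM, the median of all genes tested moved by -0.22, the values of Atp6v0b (-0.013), Atp6v0c (-0.17) and Atp6v1h (-0.019) turned negative, and Atp6v0d2 was called lower at -0.32 (adjusted p = 0.000602). Under that scaling 0 genes of the list were called higher and 5 lower, and with the coefficient of variation fixed at 0.2 none of the 10 was called in either direction. The call of Atp6v1h was also lost in DESeq2 (adjusted p = 0.182), and without either unstimulated 3xGrk-/- library or 3xGrk-/- library 2 with LPS (0.101 to 0.25).

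**Figure D3:**
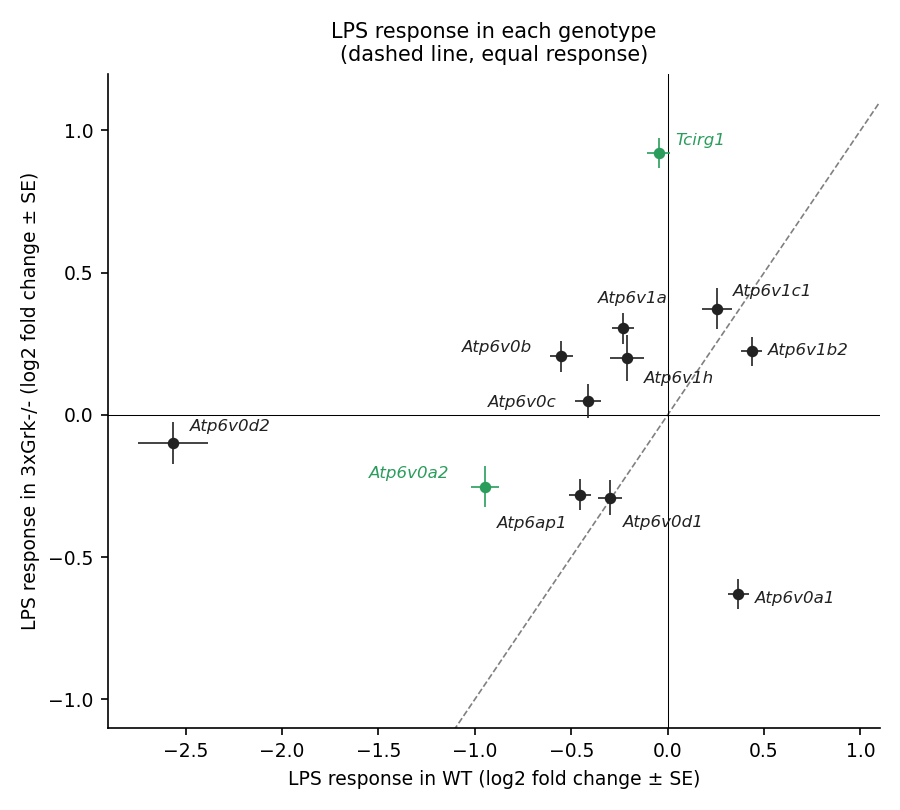
Response to LPS in WT (x axis) and in 3xGrk-/- cells (y axis), as log2 fold change with standard errors, for the 10 genes (black) and the subunit a paralogues Tcirg1 and Atp6v0a2 (green). Points above the dashed line of equal response had a higher LPS response in 3xGrk-/- cells, with Atp6v0d2 at -2.57 and -0.099 farthest to the left, while Atp6v0a1 is far below the line.

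Paralogues of 1 subunit were compared by their share of the reads counted on that subunit, with no test. Atp6v0d2 took 10.9% (exact Clopper-Pearson interval 9.05% to 13.0%) and 12.9% (11.2% to 14.7%) of the reads of subunit d in unstimulated WT libraries, and 37.1% (35.0% to 39.2%) and 38.2% (36.0% to 40.6%) in unstimulated 3xGrk-/- libraries. With LPS it took 2.64% (1.64% to 4.01%) and 2.84% (1.89% to 4.07%) in WT and 39.2% (36.7% to 41.7%) and 42.4% (40.0% to 44.8%) in 3xGrk-/- libraries. The intervals have 95% confidence and cover counting error only. They do not overlap between the genotypes in either condition. Per kilobase of exon, the means were 8.17%, 28.5%, 1.83% and 31.3% in the same order of groups, lower since Atp6v0d2 has 2716 exon bases and Atp6v0d1 has 1793.

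For subunit a, the reads lay on Atp6v0a1, on Atp6v0a2, which is known from the Golgi and endosomes, and on Tcirg1, which encodes the a3 form of lysosomes and of the osteoclast membrane. Tcirg1 took 31.2 ± 0.709% of them in unstimulated WT and 41.3 ± 0.148% in unstimulated 3xGrk-/- cells, and 30.0 ± 0.541% and 66.0 ± 0.118% with LPS (SD, n = 2). Atp6v0a1 took 45.0 ± 1.09% and 46.8 ± 0.123% without LPS, and 57.7 ± 0.423% and 25.6 ± 0.198% with LPS. By reads, Atp6v0a1 was the most counted form in every group but 3xGrk-/- with LPS, where it was Tcirg1. Per kilobase the mean shares of Tcirg1, the shorter gene, rose, and the leading form changed in unstimulated 3xGrk-/- cells alone, with 50.2% for Tcirg1 against 40.0% for Atp6v0a1. The mean shares of Tcirg1 and Atp6v0a1 were 39.4% against 39.9% in unstimulated WT, 38.0% against 51.3% in WT with LPS and 73.6% against 20.01% in 3xGrk-/- cells with LPS. The 2 unstimulated WT libraries differed in their order, with 40.0% against 39.2% in library 1 and 38.9% against 40.7% in library 2. Tcirg1 itself had 155 and 145 CPM in the WT and 300.4 and 304 CPM in the 3xGrk-/- libraries without LPS, and 141 and 149 CPM against 582 and 561 CPM with LPS. Its genotype effect was 1.01 without LPS and 1.98 with LPS (adjusted p = 2.05e-94 and 2.47e-16), and it rose with LPS by 0.92 in 3xGrk-/- cells (adjusted p = 8.58e-15). In WT cells it did not pass the test (-0.046, adjusted p = 0.52). Atp6v0a4, the form known from kidney, had no count in any library, which at the floor of 3 counts allows a share of up to 0.117% of the reads of subunit a in the library with the fewest such reads, where the exact upper limit is 0.144%.

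**Figure D4:**
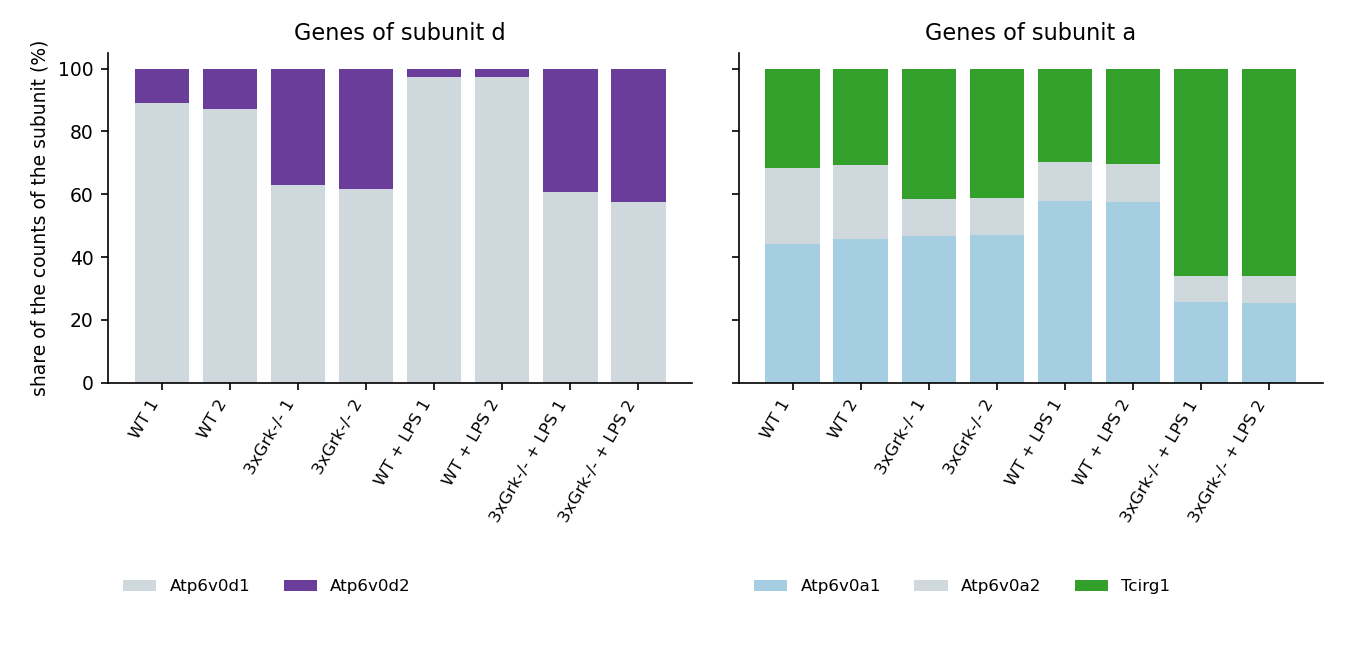
Share of the reads of subunit d (left) and subunit a (right) counted on each paralogue, in percent, with 1 stacked bar for each of the 8 libraries. Atp6v0d2 takes 37.1% to 42.4% in the 3xGrk-/- libraries and 2.64% to 12.9% in the WT libraries, and Tcirg1 takes 65.9% and 66.1% in the 3xGrk-/- libraries with LPS.

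Of the 16 other subunit genes, 9 passed the filter on low counts. Without LPS 5 were higher in 3xGrk-/- cells, 1 was lower and 3 did not pass the test (median 0.14), and with LPS 6 were higher, 1 was lower and 2 did not pass (median 0.25). Of all genes tested, 22.1% were higher and 22.7% lower without LPS, and 24.7% and 24% with LPS. Of the higher ones, DESeq2 called 3 without and 2 with LPS. Next to Tcirg1, the largest difference was in Atp6v1e1, a stalk subunit of V1, with 85.4 and 89.1 CPM in WT and 167 and 164 CPM in 3xGrk-/- libraries without LPS (log2 fold change 0.92, SE 0.060, adjusted p = 4.62e-52), and 97.8 and 117 CPM against 240.3 and 245.5 CPM with LPS (1.17, SE 0.077, adjusted p = 4.73e-11). Atp6v0a2 was lower in 3xGrk-/- cells without LPS (-0.40, SE 0.065, adjusted p = 3.81e-09) and higher with LPS (0.29, SE 0.090, adjusted p = 0.0104). Atp6v1g2, known as the brain form of subunit G, was low, with 12.7 to 14.7 CPM in WT and 6.49 to 7.09 CPM in 3xGrk-/- libraries with LPS (-1.01, SE 0.20, adjusted p = 0.000299). Atp6v1b1, Atp6v1e2 and Atp6v1g3, forms of subunits B, E and G, had no count in any library.

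Genes that work with the pump were grouped by role, and their counts stand beside 22.1% of all genes tested called higher and 22.7% lower without LPS, and 24.7% higher and 24% lower with LPS. Of 12 factors that assemble or regulate it, 11 were tested, and 2 were higher and 1 lower without LPS and 2 higher and 2 lower with LPS, shares below those of all genes tested, and DESeq2 called 1 higher with LPS. Their medians were 0.025 and 0.078. Dmxl2, a rabconnectin subunit that joins V1 to V0, was higher in 3xGrk-/- cells by 1.07 without LPS (SE 0.06, adjusted p = 2.52e-68) and by 0.23 with LPS (adjusted p = 0.0206), and its partner Wdr7 by 0.55 with LPS (adjusted p = 0.00013). Rogdi, of the same complex, was higher by 0.17 without LPS (adjusted p = 8.13e-05) and lower with LPS, with means of 471 CPM in WT and 364 CPM in 3xGrk-/- cells (-0.38, adjusted p = 7.8e-05). Ncoa7 was lower with LPS (-0.46, adjusted p = 3.08e-05) and Tbc1d24 without LPS (-0.56, adjusted p = 5.03e-05). Of the 10 genes of Ragulator and the Rag GTPases, which sit on the lysosome with the pump and recruit mTORC1, 5 were higher without LPS (median 0.27) and 7 with LPS (median 0.45), with Lamtor4 at 1.18 without LPS and Rragd at 2.55 and the amino acid transporter Slc38a9 at 1.199 with LPS. Rragd had a low level in WT with LPS (1.27 and 2.78 CPM, against 12.2 and 12.5 CPM in 3xGrk-/- libraries). DESeq2 called 3 and 6 of the 10 higher. None of the 10 was called lower in either comparison, by edgeR, by DESeq2 or at an unadjusted p under 0.05. Of 7 genes of MiT/TFE factors and folliculin, the transcription factors of lysosomal genes and their regulators, 5 were higher without and 6 with LPS (medians 0.26 and 1.07), and DESeq2 called 4 and 5. Tfec was higher by 1.25 and 2.93, Mitf by 1.49 and 2.0 and Fnip2 by 0.44 and 2.65. These lists were chosen with earlier results of these data known, and their counts are descriptions.

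Of 15 lysosomal ion channels and exchangers, 14 were tested without LPS, with 8 higher and 1 lower (median 0.29), and 13 with LPS, with 10 higher (median 0.71). Of all genes tested, 22.1% were called higher and 22.7% lower without LPS, and 24.7% higher with LPS. DESeq2 called 3 and 9 of them higher. The proton-coupled metal transporter Slc11a1 was higher by 2.50 and 2.87, the chloride-proton exchanger Clcn7 by 0.97 and 1.98, and the cation channel Mcoln2 by 3.75 with LPS. Mcoln2 had a low level in WT with LPS (3.45 and 3.87 CPM, against 49.4 and 49.8 CPM in 3xGrk-/- libraries). The gene called lower without LPS was the sodium-proton exchanger Slc9a9, with means of 5.91 CPM in WT and 1.58 CPM in 3xGrk-/- cells (-1.84, SE 0.33, adjusted p = 1.31e-07). Of the 15 subunit genes of the mitochondrial ATP synthase, which is built like the V-ATPase but makes ATP, 2 were higher without LPS (median 0.087), among them Atp5b at 0.16, and 4 were lower with LPS (median -0.11), among them Atp5g2 at -0.47. These 2 of 15 are a smaller share than the 22.1% of all genes tested that were higher without LPS, and the 4 of 15 are near the 24% that were lower with LPS. In the second comparison 0 were higher in edgeR, also at an unadjusted p under 0.05, and in DESeq2.

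**Figure D5:**
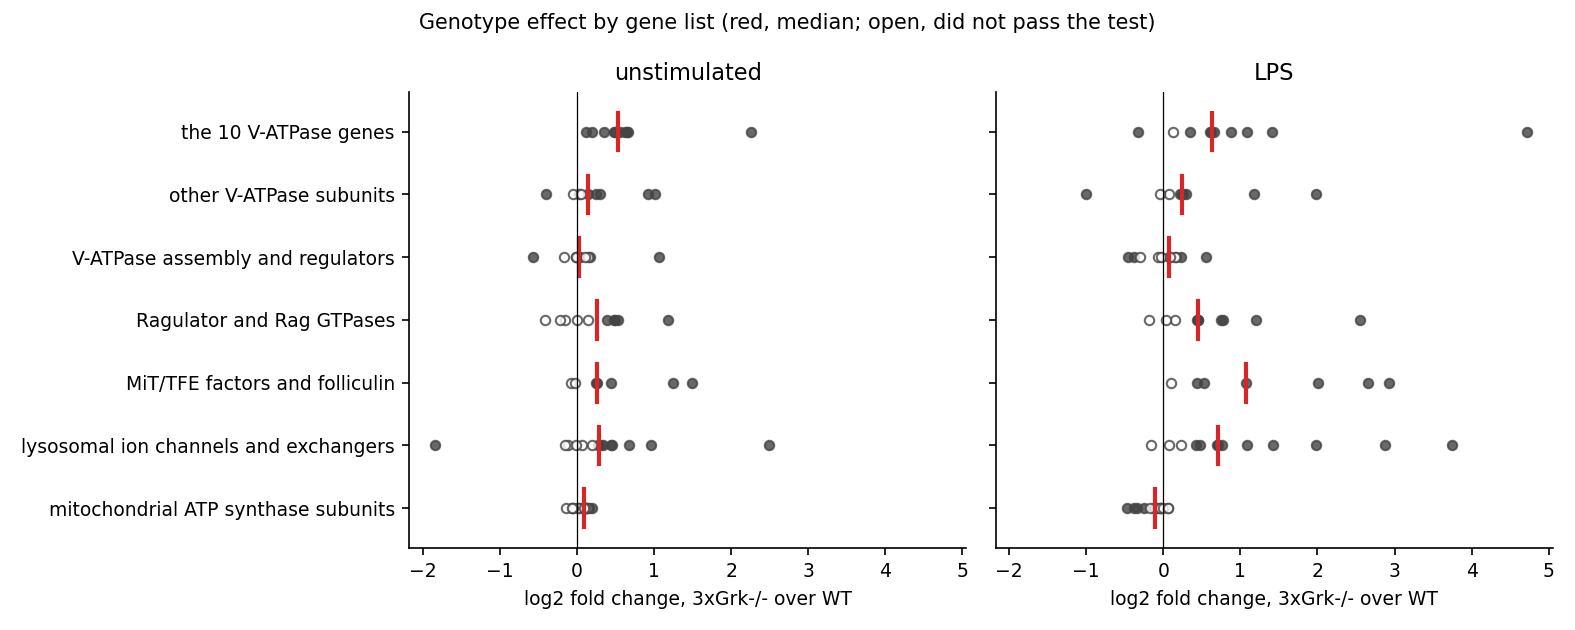
Log2 fold change of 3xGrk-/- over WT (x axis) for the genes of 7 lists (rows), without LPS (left) and with LPS (right). Each point is 1 gene, open where it did not pass the test, and the red line is the median, which is 0.53 and 0.63 for the 10 V-ATPase genes and 0.087 and -0.11 for the mitochondrial ATP synthase.

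The genes with the pattern most like that of Atp6v0d2 over the 8 libraries, among 9140 genes with a mean log2 CPM of at least 3, were Igf2r (Pearson r 0.999), Rab7b (0.998), Anpep (0.998), Txnip (0.997) and Eno1 (0.996). Igf2r, the receptor that brings hydrolases to lysosomes, had mean levels of 55.2 CPM in WT against 130 CPM in 3xGrk-/- cells without LPS, and 21.4 against 132 CPM with LPS. The genes most like the mean of the 10 standardized profiles were Pld3 (0.998), Notch1 (0.997), Tgfbi (0.997), C5ar1 (0.995) and Hgsnat (0.995), of which only Pld3 and Hgsnat encode lysosomal enzymes. Whether lysosomal genes are frequent among genes of similar pattern was not tested. The libraries fall into 4 groups of 2 and were scaled together, so that these correlations mainly describe the group means and were not tested.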

How the data were processed

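The authors isolated RNA by phenol-chloroform extraction, made stranded mRNA libraries (TruSeq), ran the mRNA-seq workflow of snakePipes, aligned the reads to mm10 with STAR and counted them on genes with featureCounts. The annotation release and the strand setting are not given in the sources used here. The deposited values are counts of reads per gene without normalization, in 1 table for each stimulation, and 0 columns were left without a sample.

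Symbols, coordinates and exon lengths came from GENCODE M21 on GRCm38. Exon length is the number of bases in the exons of all transcripts of a gene together, which can exceed the length of the expressed mRNA. Of 47937 gene IDs, 47310 matched, and the unmatched IDs held 0.0468% of all counts. Reads that near-identical copies share, such as those of Atp6v0c and its pseudogenes, may be split between them.

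R 4.3.3 with edgeR 4.0.16 (filterByExpr, TMM, glmQLFit, glmQLFTest, Benjamini-Hochberg adjustment over all genes tested, adjusted p under 0.05) and Python 3.11.15 were used. Genotypes were compared within each table (4 libraries), and the interaction and LPS responses in 1 fit of 8 libraries. Each standard error was taken from the unshrunken log2 fold change and the F statistic of its test. The fits were also run on counts simulated with a single spread for all genes, which cannot show whether the libraries are technical replicates. With 2 libraries against 2, an exact two-sided permutation test cannot go below p = 0.333, so that each adjusted p rests on the spread estimated across genes (common biological coefficient of variation 0.0306 without LPS, 0.0573 with LPS and 0.0463 over all 8 libraries). Total counts were 4713305 to 6933358 per library.

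The named genes are the 10 genes and, from 15 other lists, up to 4 called genes with the largest change per list and comparison, and the 5 genes of most similar pattern; the other genes of the lists are given by their counts. The genes and lists were chosen with earlier results of these data known. Promoter sequences are from RefSeq on GRCm38.p6. Alternatives were DESeq2 1.42.0, RLE, library size only, no filter, at least 10 counts in every library, a replicate block, fixed coefficients of variation of 0.2 and 0.4, an absolute log2 fold change of at least 1, and leaving out each library.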

Additional observations from a re-analysis of the deposited data

Results flagged for a closer look

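The genotype effect with LPS differed from that without LPS for 7 of the 10 genes in the test of the difference itself (edgeR's quasi-likelihood test, 8 libraries, adjusted over 12541 genes). The difference, with LPS minus without on the log2 scale, was 2.47 for Atp6v0d2 (adjusted p = 7.92e-11), 0.76 for Atp6v0b (adjusted p = 2.02e-08), 0.54 for Atp6v1a (adjusted p = 3.47e-06), 0.46 for Atp6v0c (adjusted p = 0.00022), 0.41 for Atp6v1h (adjusted p = 0.00836), -0.21 for Atp6v1b2 (adjusted p = 0.0285) and -0.996 for Atp6v0a1 (adjusted p = 2.15e-11). In the same test, 12 of 12 monocyte and macrophage genes were called higher, with a median of 2.09, where 16.5% of all genes tested were called higher and 16% lower. Atp6v1b2 and Atp6v0a1 went the other way, and the part of the monocyte and macrophage genes in the result was not tested. No group had enough libraries for a check of single libraries that stand apart.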

How the results depend on the processing

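The smallest called effects, those of Atp6v0d1 and Atp6v1h without LPS and of Atp6v1b2 and Atp6v1h in the interaction, crossed the threshold under several settings. Of the values of single genes under an alternative, 542 kept their side of the threshold, 156 no longer passed, 3 newly passed and 3 reversed. A change of direction was counted as reversed only where the gene was called in the main setting or in the alternative. The reversed values all came from the LPS response in 3xGrk-/- cells with library size only, -0.0127 for Atp6v0b, -0.1694 for Atp6v0c and -0.0192 for Atp6v1h, and the median there became -0.0943, with 0 genes called higher and 5 lower.

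Library size only moved the other medians to 0.4451 without LPS, 0.5465 with LPS and -0.4799 for LPS in WT, and the share of higher calls among all called genes from 49.3% to 35.8% without LPS, from 49.0% to 31.1% for LPS in WT and from 50.5% to 30.2% for LPS in 3xGrk-/- cells. At a fixed coefficient of variation of 0.2, the genes of the list called higher and lower were 1 and 0 without LPS, 4 and 0 with LPS, 1 and 0 in the interaction, 0 and 1 for LPS in WT, and 0 and 0 for LPS in 3xGrk-/- cells. At 0.4 they were 1 and 0, 1 and 0, 0 and 0, 0 and 1, and 0 and 0. With an absolute log2 fold change of at least 1 they were 1 and 0, 3 and 0, 1 and 0, 0 and 1, and 0 and 0. In the interaction, DESeq2 and the minimum of 10 counts each left 1 gene called lower, and with that minimum the median was 0.3295 in the interaction and -0.2978 for LPS in WT, from fewer genes tested.

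Leaving out 1 library gave 8 to 9 genes higher without LPS (median 0.4938 to 0.5679), 8 to 9 higher with LPS (0.6397 to 0.6688), 4 to 5 higher and 1 to 2 lower in the interaction (0.2554 to 0.3225), 2 to 3 higher and 6 to 7 lower for LPS in WT (-0.2892 to -0.2548), and 4 to 5 higher for LPS in 3xGrk-/- cells (0.1009 to 0.1350). Per kilobase, the share of Atp6v0d2 was 8.17%, 28.5%, 1.83% and 31.3% and that of Tcirg1 39.4%, 50.2%, 38.0% and 73.6%, for unstimulated WT, unstimulated 3xGrk-/-, WT with LPS and 3xGrk-/- with LPS.

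Over all genes tested, 5369 were called without LPS, 5754 with LPS, 4070 in the interaction, 7561 for LPS in WT and 6945 for LPS in 3xGrk-/- cells. These were 1448, 2236, 667, 3330 and 2804 at a coefficient of variation of 0.2, 448, 782, 72, 1110 and 850 at 0.4, and 1444, 1984, 1375, 2700 and 2373 with an absolute log2 fold change of at least 1, and DESeq2 called 3086 without LPS and 2643 in the interaction. Deviations of same-numbered libraries correlated between -0.0184 and 0.0327, so that no shared effect of the replicate number was seen. Whether same-numbered libraries were made together is not stated and cannot be told from these values. With the replicate block, 9 genes of the list were higher without LPS (adjusted p of Atp6v0d1 0.0616) and 6 lower for LPS in WT (Atp6v1h 0.0507), and no other call on the list changed. Apart from the reversals named, the cause of these changes was not tested.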

Other observations

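Osteoclast genes, a program in which Atp6v0d2 and Tcirg1 are known to take part, were measured alongside. Of 10 such genes, 7 were tested in each genotype comparison, with 5 higher and 2 lower in 3xGrk-/- cells without LPS (median 1.85), where 22.1% of all genes tested were higher and 22.7% lower, and 5 higher and 1 lower with LPS (median 2.098), where 24.7% were higher and 24% lower. DESeq2 called 5 higher and 1 lower in each of these comparisons. The protease gene Ctsk was higher by 3.10 and 4.19, the phosphatase gene Acp5 by 1.95 and 2.098, and the fusion gene Ocstamp by 2.01 and 3.04 on the log2 scale. The transcription factor gene Nfatc1 was lower, with means of 71.0 against 54.1 CPM without LPS (-0.40, adjusted p = 3.65e-06) and 49.1 against 30.8 CPM with LPS (-0.67, adjusted p = 1.92e-05). The integrin gene Itgb3 was lower without LPS, with 7.35 against 4.49 CPM (-0.69, adjusted p = 0.0121), and did not pass the test with LPS (-0.088, adjusted p = 0.864). In the interaction only Dcstamp, another fusion gene, was called (1.83, SE 0.16, adjusted p = 5.37e-10), while 6 of the 7 were not, where 16.5% of all genes tested were called higher and 16% lower. Siglec15 had no count in any library. Summed over the 10 genes, the level was 217 and 224 CPM in the WT against 447 and 458 CPM in the 3xGrk-/- libraries without LPS, and 115 and 124 CPM against 351 and 340.3 CPM with LPS.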
